A study of Homo sapiens with 4 samples.

Results

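The comparison described here is that of RL-95-2 cells given a mimic of tRF-20-S998LO9D with RL-95-2 cells transfected with its negative control. It was chosen by its labels and takes 2 of the 4 libraries of the series. RL-95-2 is an established human endometrial cancer cell line, and tRF-20-S998LO9D is a fragment of a transfer RNA. The other pair of libraries holds HEC-1-A, another endometrial cancer line, with the same mimic or the same negative control, and is used below only for comparison. Polyadenylated RNA was sequenced, and the mimic itself was not measured. The sources used here do not give its amount or the time after transfection. Each side of the comparison is 1 library, so no p-value was computed and no difference below has a replicate check.

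Fragments of transfer RNAs are small RNAs cut from precursor or mature transfer RNAs. Some are loaded into Argonaute proteins and pair with messenger RNAs in the way of a microRNA, and others act on translation. Endometrial cancer arises from the epithelium that lines the uterus, and its cell lines keep epithelial keratins, junctions and integrins.

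The control library held 39999621 counts and the mimic library 46220053. Levels are CPM, the count of a feature relative to the total of its library, after TMM scaling. A feature was called measured where its CPM averaged 1 or more in the pair, which left 13151 of 22494 features. The log2 ratio is that of the mimic over the control library, and the interval beside it is an exact 95% interval from both counts that covers counting error only. An epithelial identity showed in the markers, while those of the endometrial lineage were measured only in part. All 10 epithelial markers were measured, summing to 3917 CPM with the control and 4861 with the mimic, against 0.231 and 0.304 CPM for 12 blood and immune markers, of which 7 were at 0 in both libraries. Of 10 endometrial lineage markers, 4 were measured, with PAX8, a transcription factor of the Mullerian duct, at 293 and 220 CPM, while PGR, the progesterone receptor, and SOX17 were at 0 in both. Of the fibroblast markers, COL1A2, DCN, POSTN and THY1 were at 0, and of the endothelial markers EMCN, KDR and PECAM1. In each of these 2 lists 3 members were measured. COL1A1 had 78.2 CPM with the control and 56.6 with the mimic, FAP 7.15 and 6.17, and COL3A1 2.43 and 1.83. Among endothelial markers CDH5 had 14.0 and 24.5 CPM, ERG 4.18 and 9.31, and ESAM 1.77 and 2.23. The 10 endothelial markers summed to 20.4 CPM with the control and 36.8 with the mimic. In libraries of whole cultures, fewer cells of a type and less RNA per cell cannot be told apart.

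Across the measured features the median log2 ratio was 0.00, with the middle 50% between -0.37 and 0.36. In HEC-1-A the middle 50% of ratios lay between -0.12 and 0.16. At least 2-fold higher in the RL-95-2 mimic library were 619 features (4.71%), and at least 2-fold lower 857 (6.52%), together 11.2%. For HEC-1-A these shares were 0.871% higher and 0.239% lower. The larger ratios lay mostly on the lower side, with 177 features at least 4-fold lower (1.35%) and 49 at least 4-fold higher (0.373%). Features at least 2-fold lower had taken 12.1% of all counts in the control library and took 4.48% in the mimic library. Those at least 2-fold higher took 1.30% with the control and 3.73% with the mimic. When libraries were scaled by their totals, every ratio was 0.13 higher and 56.1% of the 2-fold differences were gains, in place of 41.9%. Of the measured features, 50.1% had a ratio above 0 and 49.9% below, the shares to set beside the RL-95-2 counts above and below 0 of the gene groups. Such shares are not given here for HEC-1-A. A feature under 1 CPM in 1 library passes the minimum only through the other library and has to differ, so counts over measured members include such features. MAP1B, SPRR2D, SLC43A1, SPRED3 and AXIN2 below are among them. Where a median of a group is followed by a range, the range spans the alternative scalings, filters and units tried.

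**Figure D1:**
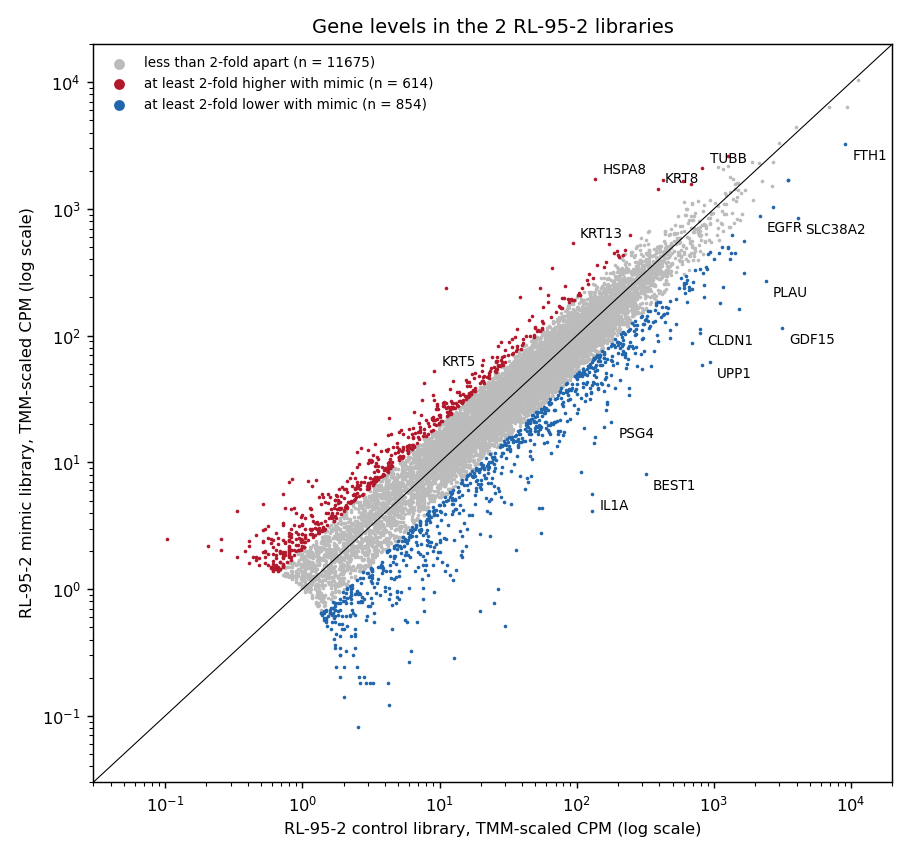
Level of each measured feature in the control library (horizontal axis) and the mimic library (vertical axis) of RL-95-2, in TMM-scaled CPM on log scales, with the line of equal levels. Points at least 2-fold higher are red and at least 2-fold lower blue, the 8 measured features at 0 in 1 library are not drawn, and HSPA8 and KRT13 stand above the line while GDF15, PLAU and BEST1 stand below it.

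The largest gains in CPM fell on chaperones, cytoskeletal genes and glycolytic enzymes. HSPA8, the constitutive HSP70 chaperone, went from 5321 counts with the control to 84766 with the mimic, or from 0.0133% of all counts (Clopper-Pearson interval 0.0129% to 0.0137%) to 0.183% (0.182% to 0.185%). ACTB, which encodes beta-actin, stood at 1272 CPM with the control and 2632 with the mimic (log2 ratio 1.05, interval 1.03 to 1.06). PKM, the pyruvate kinase of glycolysis, stood at 677 and 1558 CPM (1.20), and GAPDH, another glycolytic enzyme, at 1262 and 2176 CPM (0.79). ACTG1, the gamma-actin, was also among the 12 largest gains, at 1172 and 2062 CPM, as were the tubulin genes TUBB and TUBA1B. PTMA, which encodes prothymosin alpha, had 604 and 1134 CPM, and MT-ND5, a mitochondrially encoded subunit of respiratory complex I, 1305 and 1770 CPM.

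The largest losses fell on iron storage, secreted proteins, amino acid transport and a linker histone. FTH1, the heavy chain of the iron store ferritin, took 0.885% of all counts with the control and 0.349% with the mimic, a loss from 9074 to 3271 CPM (log2 ratio -1.47, interval -1.48 to -1.46). On the length-scaled FPKM values FTH1 stood above the translation factor gene EEF1A1 in both libraries, at 6432 and 3094 FPKM against 2967 and 2461 FPKM. SLC38A2, a sodium-coupled transporter of neutral amino acids, went from 4104 to 851 CPM (-2.27), and PLAU, the urokinase plasminogen activator, from 2384 to 270 CPM (-3.14). IGFBP3, a secreted binding protein of insulin-like growth factors, had 3457 and 1687 CPM (-1.03). H1F0, a linker histone whose messenger RNA is polyadenylated, had 1648 and 313 CPM (-2.40). Chaperones were not on the gaining side only, since HSPA5, the HSP70 chaperone of the endoplasmic reticulum, had 2713 and 1029 CPM (-1.40). EEF1A1 was among the 12 largest losses in CPM with less than a 2-fold difference, 9268 against 6344 CPM (-0.55). Reads of FTH1 and EEF1A1 can be shared with processed pseudogenes, and how the authors' counting treated them is not given in the sources used here.

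**Figure D2:**
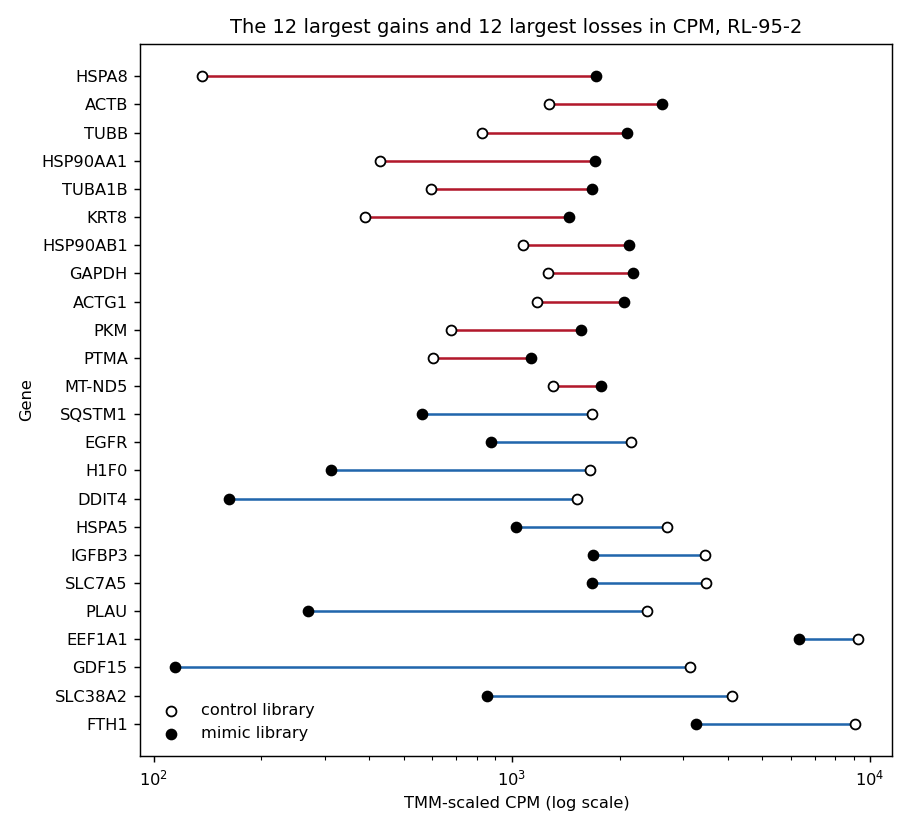
Genes with the 12 largest gains and the 12 largest losses in RL-95-2, with TMM-scaled CPM on a log axis, open points for the control library and filled points for the mimic library. HSPA8 shows the longest line among the gains (136 to 1719 CPM) and GDF15 among the losses (3150 to 114 CPM).

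Where the pair averaged 20 CPM or more, the highest log2 ratios included several outside the chaperone families. KRT13 and KRT5, keratins of stratified epithelia, went from 3637 to 26368 counts and from 358 to 2589 counts. ALPP, the placental alkaline phosphatase, went from 301 to 2077 counts (log2 ratio 2.44, interval 2.27 to 2.63), and its close paralog ALPPL2 had 1.33 and 5.33 CPM (1.96, interval 1.57 to 2.46), so that both measured alkaline phosphatases were higher. SNRNP25, a protein of the minor spliceosome, had 8.97 and 34.2 CPM (1.93), although it overlaps POLR3K on the other strand. PTRF, a coat protein of caveolae, had 61.5 and 209 CPM (1.76), and GOLIM4, a Golgi membrane protein, 27.9 and 89.5 CPM (1.68). BAG1, a co-chaperone of HSP70, had 20.7 and 64.8 CPM (1.65), and LRRC45, a centrosomal protein, 12.6 and 43.9 CPM (1.79). In the HEC-1-A pair BAG1 had a log2 ratio of -0.58, LRRC45 -0.59, GOLIM4 -0.34, PTRF -0.05 and SNRNP25 0.15.

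At the other end, BEST1, a chloride channel gene, had the lowest ratio among genes averaging 20 CPM or more, with 12392 counts for the control and 398 for the mimic (log2 ratio -5.29, interval -5.45 to -5.15). BEST1 lies on the plus strand at chr11:61949821-61965515 (GRCh38) and overlaps FTH1 on the minus strand at chr11:61959718-61967660. Whether the counting used strand is not given in the sources used here, so reads of these 2 genes may not be separated. CREB5, a transcription factor of the CREB family, had 55.1 and 2.76 CPM (-4.30, interval -4.58 to -4.07). UPP1, uridine phosphorylase, which splits uridine, had 937 and 61.9 CPM (-3.92, interval -3.97 to -3.87). KIF21B, a kinesin motor, had 107 and 8.38 CPM (-3.67), and PTPRH, a receptor tyrosine phosphatase, 53.3 and 4.36 CPM (-3.60). In HEC-1-A the ratios of these genes were above 0, from 0.14 for CREB5 to 1.09 for PTPRH.

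The promoters of 3 chaperone genes among the highest ratios are printed because they carry a short motif of the element bound by heat shock factors. The sequences are from RefSeq (GRCh38.p14), run 5′ to 3′ on the strand of the gene and end at the base before its start. Capitals mark each match to GAANNTTC, searched on both strands in the 250 bases before the start (the motif reads the same on both).
HSPA8: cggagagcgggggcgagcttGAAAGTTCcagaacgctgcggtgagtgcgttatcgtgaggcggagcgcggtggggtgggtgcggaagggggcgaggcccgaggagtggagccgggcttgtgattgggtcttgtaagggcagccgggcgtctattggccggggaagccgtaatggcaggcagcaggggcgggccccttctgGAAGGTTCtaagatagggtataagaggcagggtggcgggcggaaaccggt
HSPA1A: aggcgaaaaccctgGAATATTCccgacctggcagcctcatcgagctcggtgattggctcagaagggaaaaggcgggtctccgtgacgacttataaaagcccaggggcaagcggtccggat
DNAJA1: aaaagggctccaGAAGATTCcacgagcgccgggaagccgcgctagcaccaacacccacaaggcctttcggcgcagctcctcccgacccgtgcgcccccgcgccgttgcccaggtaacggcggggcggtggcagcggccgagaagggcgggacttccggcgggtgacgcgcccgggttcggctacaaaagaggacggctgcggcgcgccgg

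The HSPA8 sequence lies at chr11:123062137-123062386 on the minus strand, that of HSPA1A at chr6:31815423-31815542 on the plus strand and that of DNAJA1 at chr9:33025063-33025272 on the plus strand. HSPA8 holds 2 matches and the others 1 each. Of 6 chaperone genes searched, which were picked for their high ratios, HSPA8, HSPA1A, HSPA1B and DNAJA1 held the motif and HSP90AA1 and HSPE1 did not. It was present in 1597 of all 27305 promoters (5.85%). Because the 6 genes were picked by their values, no enrichment can be read from their matches. A match describes letters only, and factor binding was not measured. DNAJA1, an HSP40 co-chaperone of HSP70, went from 2092 to 11649 counts (log2 ratio 2.14, interval 2.07 to 2.21). HSPA1A went from 1498 to 9969 counts and HSPA1B from 2590 to 16958, but the coding sequences of this pair are nearly identical and their reads cannot be told apart. HSPE1, the mitochondrial co-chaperonin, had 56.8 and 167 CPM (1.55), while its partner HSPD1 had 831 and 955 CPM (0.20). In the HEC-1-A pair the log2 ratio was -0.92 for HSPA8, -0.86 for HSPA1A, -0.72 for HSPA1B and -0.43 for DNAJA1. HSP90AA1 had -0.08 there and HSPE1 -0.01.

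Tubulin and microtubule genes had the highest median of the gene lists that kept at least 5 measured members. Of 16 measured members, 8 reached 2-fold on the higher side and 2 on the lower side, with a median log2 ratio of 1.04, against 0.23 and no member 2-fold apart in HEC-1-A. The isotypes that build microtubules were on the higher side. TUBB, a beta-tubulin, had 823 CPM with the control and 2100 with the mimic (1.35, interval 1.33 to 1.37), TUBA1B, an alpha-tubulin, 595 and 1668 CPM (1.49), and TUBB4B 171 and 525 CPM (1.62). Among neuronal microtubule-associated proteins, MAP1B and MAP2 stood apart from them. MAP1B had 26.5 and 0.994 CPM (-4.67, interval -5.18 to -4.32) and MAP2 39.0 and 14.4 CPM (-1.44). For MAPT, at 111 and 125 counts, the interval included 0 (-0.16, interval -0.55 to 0.22). Tubulin genes are close in sequence, so the split of reads between isotypes is uncertain. For actin cytoskeleton genes the median was 0.31, and 4 of 28 were at least 2-fold higher and none lower, among them PFN1, the actin monomer binder profilin, at 244 and 625 CPM (1.36).

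Keratins split in both directions. KRT8, a keratin of simple epithelia, went from 15143 to 71166 counts (log2 ratio 1.90, interval 1.87 to 1.92), while its filament partner KRT18 had 840 and 1067 CPM (0.34). The annotated KRT8 locus overlaps KRT18. KRT19 had 277 and 511 CPM (0.88) and KRT7 878 and 704 CPM (-0.32). KRT80 and KRT23 were lower, at 157 and 19.2 CPM (-3.03) and 43.1 and 7.55 CPM (-2.51). Keratins of stratified epithelia were split as well, with KRT13, KRT5 and KRT15 (35.3 and 96.9 CPM, 1.46) higher and KRT17 (467 and 263 counts, log2 ratio -1.16) lower. SPRR2D, a precursor of the cornified envelope, had 6.02 and 0.264 CPM (-4.28). Of 17 measured stratified and squamous genes, 4 lay at least 2-fold higher and 2 lower, and their median of -0.12 had no stable sign over the settings (-0.14 to 0.02).

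Groups of mitochondrial genes had medians above 0 with small ratios per gene. Nuclear genes of respiratory complex I had 34 of 37 measured members above 0 and a median log2 ratio of 0.40, with NDUFA9 at 33.6 and 71.0 CPM (1.08). In the other respiratory chain complexes 31 of 32 were above 0, with a median of 0.50, and ATP5G1, a subunit of the ATP synthase ring, had 26.1 and 68.3 CPM (1.39). Mitochondrial ribosomal protein genes had 70 of 75 above 0 and a median of 0.37, with MRPL27 at 10.8 and 30.1 CPM (1.48). Citric acid cycle genes had 21 of 24 above 0, with a median of 0.34, IDH3B at 0.87 and PDK1, an inhibitor of pyruvate dehydrogenase, at -0.84. In HEC-1-A the medians of these 4 groups were 0.07, 0.09, 0.02 and 0.12. Few of their members reached 2-fold in RL-95-2, with 2, 3, 1 and 0 higher and none lower.

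Proteasome genes had 32 of 35 members above 0 and a median of 0.44, with 2 at least 2-fold higher, PSMD3 (87.1 and 185 CPM, 1.09) and PSMB3 (48.6 and 102 CPM, 1.06). PSMD7 was the lowest at -0.45. Splicing factor genes had 25 of 30 above 0 and a median of 0.42. SRSF3, an SR protein that binds exons, had 140 and 360 CPM (1.37), SRSF2 118 and 275 CPM (1.22), and U2AF1, which recognises the end of introns, 25.9 and 63.2 CPM (1.28). CLK1, a kinase of SR proteins, had -0.67. In HEC-1-A the splicing median was -0.08 with 20 of 30 below 0. Other parts of the expression machinery did not share the higher side in RL-95-2. Translation factors had 17 of 33 below 0 and a median of -0.08 (-0.10 to 0.11), ribosome biogenesis genes 14 above and 14 below 0 (median 0.01), and nuclear pore and import genes a median of -0.01. Chaperonin and prefoldin genes had a median of 0.30 (0.28 to 0.47), with CCT3 at 0.99 and the prefoldin subunit PFDN2 at 133 and 42.0 CPM (-1.66).

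Genes of nucleotide synthesis and clustered histones were mostly above 0, and genes of the G1 to S transition were mixed. None of 23 nucleotide synthesis genes was 2-fold apart, but 17 were above 0 with a median of 0.40, among them the thymidylate makers TYMS (106 and 206 CPM, 0.96) and TK1 (108 and 194 CPM, 0.85), while GART, an enzyme of purine synthesis, had -0.60. Among G1 cyclins and inhibitors of cyclin-dependent kinases, 3 of 21 were at least 2-fold higher and 2 lower, with 12 above 0 and 9 below. CDKN2C, an inhibitor of CDK4 and CDK6, had 11.9 and 37.7 CPM (1.66), the transcription factor E2F1 26.9 and 57.9 CPM (1.11) and cyclin E2, encoded by CCNE2, 21.0 and 42.4 CPM (1.01). The inhibitor CDKN1A had 113 and 18.7 CPM (-2.59, interval -2.69 to -2.49) and CDKN1C 429 and 194 counts (-1.47). CDK inhibitors thus stood at both ends of the group.

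Of 18 measured clustered histone genes 4 were at least 2-fold higher and none lower (median 0.39, 0.28 to 0.63), and in HEC-1-A 5 of 19 were (median 0.54). The 4 include HIST1H2BJ (0.641 and 1.74 CPM) and HIST1H3H (0.974 and 2.45 CPM). Both passed the minimum only through the mimic library and so had to be higher. Most messages of clustered histones lack a poly(A) tail and are poorly sampled by this method. DNA repair genes had 18 of 22 above 0 with a median of 0.25 (0.23 to 0.38), led by LIG1, the replicative ligase, at 42.4 and 99.3 CPM (1.23).

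Chromatin genes were mixed, with a median of 0.03 (0.01 to 0.20). UHRF1, which recruits the maintenance methyltransferase DNMT1, stood at 81.3 and 198 CPM, and DNMT1 itself had 265 and 433 CPM (log2 ratio 0.71). The de novo DNA methyltransferases were lower, DNMT3A at 32.7 and 12.2 CPM (-1.42) and DNMT3B at 68.1 and 26.0 CPM (-1.39). KDM6B, a histone H3 demethylase, had 69.0 and 20.6 CPM (-1.74). Zinc finger genes named ZNF, the largest group with 390 measured members, had a median of -0.01 (-0.03 to 0.12), with 10 at least 2-fold higher and 9 lower.

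**Figure D3:**
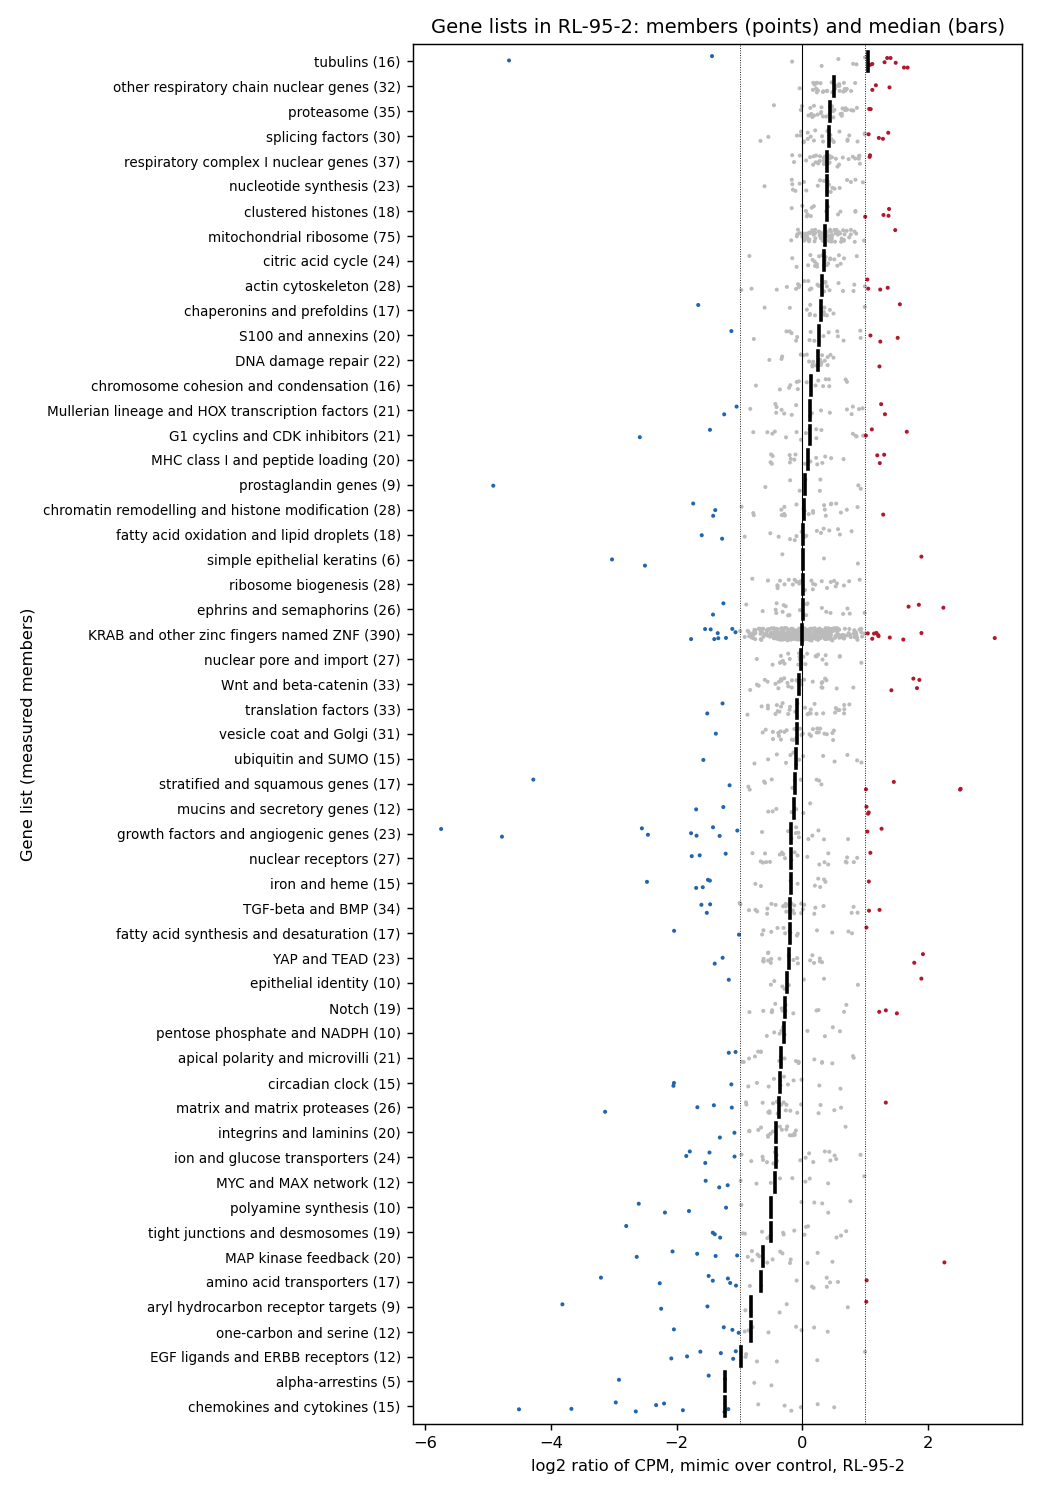
log2 ratio of CPM, mimic over control, in RL-95-2 for the measured members of each gene list with at least 5 of them (pregnancy-specific glycoproteins not drawn) (points, number in parentheses) and their median (black bars), ordered by median. Dotted lines mark 2-fold, and the medians run from -1.24 for chemokines and cytokines to 1.04 for tubulin genes.

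On the lower side stood the pregnancy-specific glycoproteins. They are secreted immunoglobulin-like proteins made mainly by the trophoblast of the placenta, and were grouped after their values were seen. PSG4 went from 6969 counts with the control to 1024 with the mimic (log2 ratio -3.10, interval -3.20 to -3.01) and PSG8 from 2910 to 721 (-2.35, interval -2.47 to -2.23). The other measured members had 99 to 434 counts with the control and 4 to 123 with the mimic, and log2 ratios from -4.32 for PSG2 to -2.13 for PSG3. Of the 10 listed members 8 were measured, and PSG1, PSG2, PSG5 and PSG6, under 1 CPM with the mimic, passed that minimum only through the control library and so had to be lower. PSG7 and PSG11, below the minimum level, had 30 and 16 counts with the control and 0 with the mimic. In HEC-1-A counts of the family were low and 4 members were measured, all above 0 with a median of 0.59, PSG1 at 34 and 68 counts, PSG5 at 21 and 66, PSG8 at 29 and 62 and PSG9 at 61 and 111. The genes lie in 1 cluster on chromosome 19, between 42721638 (PSG3) and 43269530 (PSG9) on GRCh38, and their close sequence makes the split of reads between them uncertain.

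RefSeq promoters (GRCh38.p14) were found for 3 of these genes and are printed to show how close the family is upstream of its genes. Each is 119 bases on the strand of the gene, 5′ to 3′, and the capitals mark the longest run shared by all 3, of 54 bases.
PSG3: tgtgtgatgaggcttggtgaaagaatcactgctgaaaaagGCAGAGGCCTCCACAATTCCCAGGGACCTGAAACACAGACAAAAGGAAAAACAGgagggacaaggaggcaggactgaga
PSG4: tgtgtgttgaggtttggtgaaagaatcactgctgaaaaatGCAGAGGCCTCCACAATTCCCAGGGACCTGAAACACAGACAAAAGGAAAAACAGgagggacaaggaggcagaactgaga
PSG5: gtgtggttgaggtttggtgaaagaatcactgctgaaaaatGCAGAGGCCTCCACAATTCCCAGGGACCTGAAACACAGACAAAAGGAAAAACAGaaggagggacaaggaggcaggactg

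These windows lie on the minus strand at chr19:42740565-42740683 (PSG3), chr19:43205717-43205835 (PSG4) and chr19:43186588-43186706 (PSG5). The log2 ratios of the genes behind them were -2.13, -3.10 and -3.29.

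Genes of signalling through the EGF receptor were lower in part, among ligands, receptors and feedback genes. Among EGF ligands, HBEGF had 10.8 and 2.52 CPM (log2 ratio -2.09, interval -2.41 to -1.82) and AREG, amphiregulin, 18.5 and 5.96 CPM (-1.62). The receptor EGFR went from 84002 to 43176 counts, or 2152 to 876 CPM (-1.30, interval -1.31 to -1.28), while ERBB2 had 148 and 175 CPM (0.24) and ERBB3 133 and 100 CPM (-0.41). ERRFI1, an inhibitor of the receptor, had 150 and 42.1 CPM (-1.84). In all, 6 of 12 measured members were at least 2-fold lower and none higher, and the median was -0.98, whereas 11 of 13 were above 0 in HEC-1-A (median 0.20). Feedback genes of the MAP kinase pathway downstream had 5 of 20 at least 2-fold lower and 1 higher (median -0.62, -0.69 to -0.39). The ERK phosphatase DUSP5 had 242 and 38.9 CPM (-2.64), DUSP8 26.7 and 6.33 CPM (-2.07), and PHLDA1 1268 and 487 CPM (-1.38). The member at least 2-fold higher was SPRED3, an inhibitor of RAS signalling, at 0.871 and 4.36 CPM (2.26, interval 1.80 to 2.89).

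Secreted factors were lower in larger number than higher. Of 15 measured chemokines and cytokines, 9 were at least 2-fold lower and none higher, with a median of -1.24. CXCL8, a neutrophil attractant, went from 2188 to 214 counts (-3.68, interval -3.90 to -3.49), LIF, a cytokine of embryo implantation, had 14.5 and 1.81 CPM (-2.97), and CXCL2 164 and 26.1 CPM (-2.65). CXCL1 had 314 and 133 CPM (-1.24). For CXCL16, at 157 and 155 CPM, the interval of the ratio included 0 (-0.02, interval -0.07 to 0.03). In HEC-1-A all 7 measured members were above 0, with a median of 0.33. Growth and angiogenic factors had 9 of 23 at least 2-fold lower and 2 higher. ADM2, a peptide hormone, had 46.4 and 7.85 CPM (-2.55), while IGF2, an insulin-like growth factor, had 25.6 and 61.5 CPM (1.26).

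Transport and use of amino acids differed by gene. Of 17 measured amino acid transporters, 7 were at least 2-fold lower and 1 higher (median -0.66, -0.68 to -0.37, the last at a mean of at least 5 CPM), and summed to 12140 CPM with the control and 5110 with the mimic. Besides SLC38A2, the large neutral amino acid transporter SLC7A5 had 3486 and 1677 CPM (-1.06), the glycine transporter SLC6A9 116 and 41.2 CPM (-1.49), and SLC43A1 5.64 and 0.568 CPM (-3.21). The glutamate transporter SLC1A3 was the member at least 2-fold higher, at 28.9 and 58.8 CPM (1.02). Serine and one-carbon genes had 4 of 12 at least 2-fold lower and none higher, with a median of -0.82. The mitochondrial arm, MTHFD2 (791 and 333 CPM, -1.25), MTHFD1L (-0.92) and SHMT2 (-0.85), was lower than the cytosolic arm, MTHFD1 (212 and 281 CPM, 0.40) and SHMT1 (-0.01), in this pair. Asparagine synthetase, ASNS, had 293 and 71.1 CPM (-2.04).

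Polyamine genes lay on both sides of 0. Enzymes that break down or recycle polyamines were lower, SAT1, the spermidine acetyltransferase, at 1109 and 182 CPM (-2.60, interval -2.64 to -2.57) and SMOX, spermine oxidase, at 13.9 and 3.96 CPM (-1.80). Synthesis enzymes were at -0.01 for ODC1 (275 and 272 CPM), 0.77 for SRM, 0.41 for AMD1 (82.6 and 110 CPM) and -0.97 for SMS. AZIN1, the antizyme inhibitor, had 639 and 275 CPM (-1.21). With 4 of 10 members at least 2-fold lower, the median was -0.49, but -0.01 among members averaging 5 CPM or more. All 5 measured alpha-arrestins, adaptors that direct membrane transporters to degradation, were below 0 (median -1.23), led by TXNIP, which also restrains glucose uptake, at 789 and 104 CPM (-2.92, interval -2.96 to -2.88). ARRDC3 had 111 and 39.3 CPM (-1.49) and ARRDC4 61.2 and 26.0 CPM (-1.23). TXNIP had 0 counts in both HEC-1-A libraries.

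**Figure D4:**
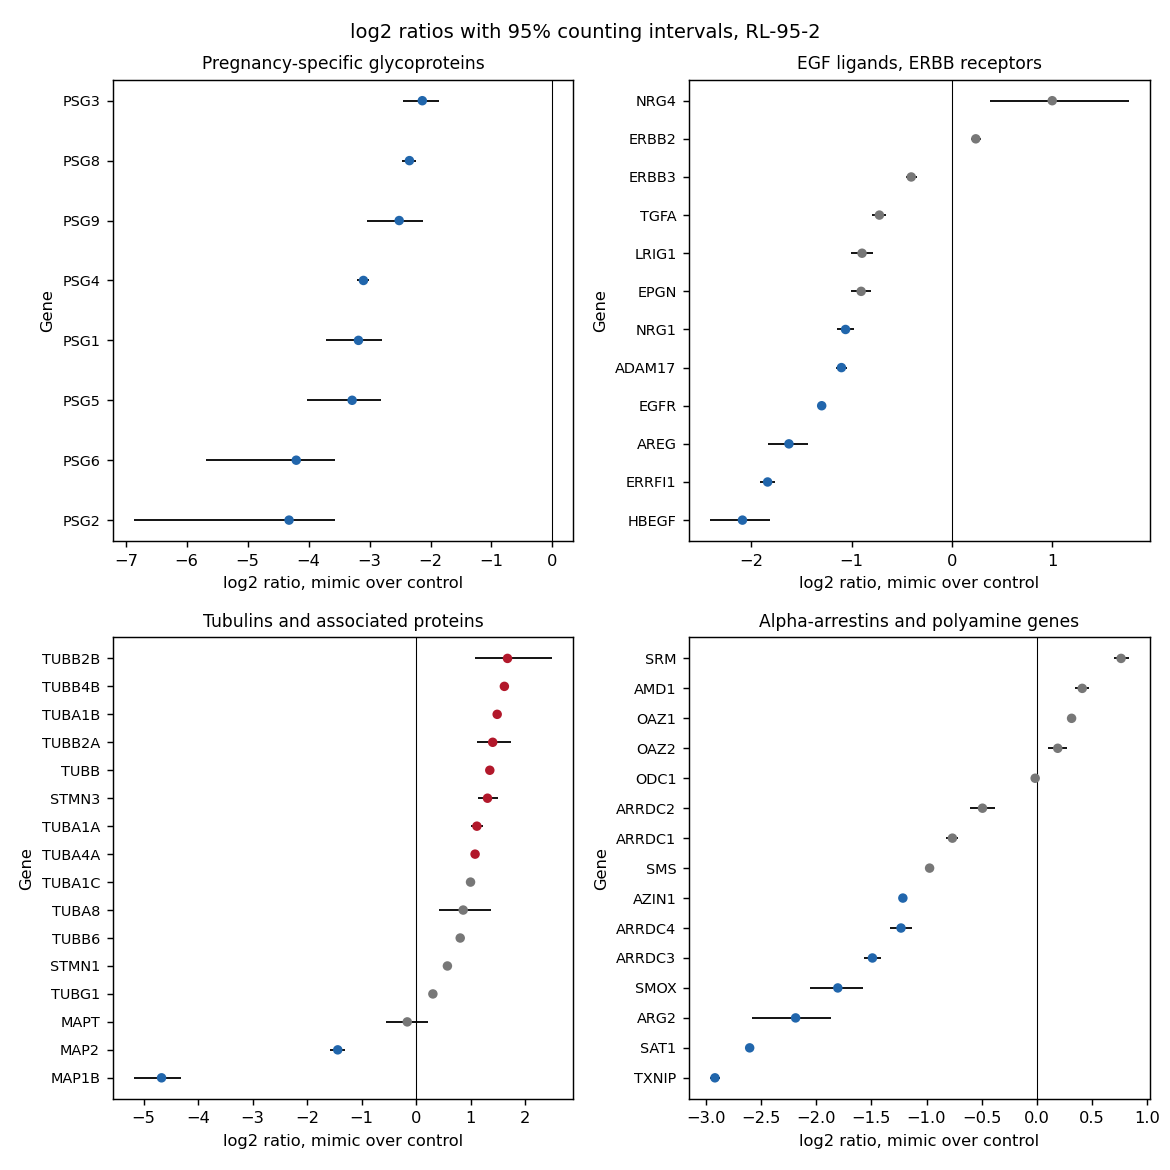
log2 ratio of CPM, mimic over control, in RL-95-2 (points) with exact 95% counting intervals (lines) for the measured members of 5 gene groups, the last panel joining alpha-arrestins and polyamine genes. Ratios of the pregnancy-specific glycoproteins run from -4.32 to -2.13, and tubulin isotypes lie above 0 while MAP1B (-4.67) and MAP2 (-1.44) lie below.

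Genes of cell junctions and of adhesion to the matrix were mostly below 0. CLDN1, a claudin of tight junctions, went from 793 to 114 CPM (log2 ratio -2.80, interval -2.85 to -2.76), CLDN7 from 303 to 122 CPM (-1.31) and OCLN, occludin, from 111 to 42.2 CPM (-1.39). Desmosomal plakophilins were on the other side, with PKP2 at 0.70 and PKP3 at 0.54, and E-cadherin, CDH1, had 204 and 208 CPM (0.02). Of 19 tight junction and desmosome genes 4 were at least 2-fold lower and none higher (median -0.50, -0.52 to -0.20). Integrin and laminin genes had 19 of 20 below 0 and a median of -0.41 (-0.44 to -0.20). ITGB4, the integrin of hemidesmosomes, had 1002 and 403 CPM (-1.31), its ligand chain LAMA3 623 and 295 CPM (-1.08) and ITGA3 1286 and 715 CPM (-0.85). ITGB5 was the member above 0, at 82.6 and 133 CPM (0.69).

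Matrix and matrix protease genes had 21 of 26 below 0, with 4 at least 2-fold lower and 1 higher (median -0.38, -0.40 to -0.15). Beside PLAU, TIMP3, an inhibitor of metalloproteases, had 447 and 168 CPM (-1.41). The matrix protein THBS1 had 78.2 and 196 CPM (1.33), and PLAUR, the receptor of urokinase, 2.41 and 3.45 CPM (0.51). PLAU overlaps C10orf55 on the other strand. Of 3 measured fibroblast markers, 0 were 2-fold apart, and all 10 markers of that list summed to 88.4 CPM with the control and 65.2 with the mimic. COL1A1 and COL3A1 are in both lists, and the part of these markers in the matrix values was not tested.

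Genes of iron handling and of xenobiotic response were lower in part. FTL, the ferritin light chain, had 1336 and 445 CPM (log2 ratio -1.59), and LCN2, a carrier of siderophores, 1310 and 406 CPM (-1.69). Of 15 measured iron and heme genes 5 were at least 2-fold lower, but 6 were above 0, including the iron reductase STEAP3 at 15.9 and 33.2 CPM (1.06). Of 9 measured targets and partners of the aryl hydrocarbon receptor, 3 were at least 2-fold lower and 1 higher (median -0.82). The receptor gene AHR had 374 and 131 CPM (-1.51) and CYP1B1, a monooxygenase, 275 and 58.0 CPM (-2.25), while its partner ARNT had 74.2 and 62.5 CPM (-0.25). ALDH3A1, an aldehyde dehydrogenase, was higher at 1.77 and 3.63 CPM (1.02, interval 0.63 to 1.46).

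Transcription factors and their partners were lower in part, with exceptions in each group. MYC had 311 and 124 CPM (-1.32, interval -1.37 to -1.28), and its antagonists MXD1 (-1.54) and MXI1 (-1.19) were lower too, while MXD3 had 0.99. The MYC and MAX network had 3 of 12 at least 2-fold lower (median -0.43, -0.45 to -0.11). Clock genes had 13 of 15 below 0 (median -0.35, -0.40 to -0.19), and the repressor NFIL3 had 73.6 and 17.8 CPM (-2.04) and the core activator ARNTL 49.8 and 22.7 CPM (-1.13). In HEC-1-A 15 of 16 clock genes were above 0. The nuclear receptor group had 16 of 27 below 0, with 3 at least 2-fold lower and 1 higher (median -0.17, -0.22 to -0.01). NCOA3, a coactivator of nuclear receptors, had 846 and 249 CPM (-1.76), and VDR, the vitamin D receptor, 22.0 and 40.3 CPM (0.87). YAP and TEAD genes had 15 of 23 below 0, with 2 at least 2-fold lower and 2 higher (median -0.21, -0.50 to -0.06). AMOTL2, a YAP-binding protein, had 887 and 337 CPM (-1.39), whereas its relative AMOT had 1.13 and 4.40 CPM (1.92).

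Other signalling groups, some with a median below 0, held single genes at high ratios. In the Wnt group (median -0.06, -0.08 to 0.07), 4 of 33 were at least 2-fold higher and none lower. The secreted inhibitor DKK1 had 9.04 and 30.9 CPM (log2 ratio 1.77), the ligand WNT10A 2.31 and 8.30 CPM (1.83), and AXIN2, a feedback inhibitor, 0.461 and 1.81 CPM (1.86, interval 1.23 to 2.79). AXIN2 passed the minimum only through the mimic library and so had to be higher. In the Notch group 12 of 19 were below 0 (median -0.27, -0.29 to -0.13), but 3 were at least 2-fold higher and none lower. LFNG, which adds sugars to Notch receptors, had 15.6 and 44.4 CPM (1.51), and HEYL, a Notch target, 2.56 and 6.51 CPM (1.33). NOTCH3 itself had 456 and 296 CPM (-0.62). NRP1, a coreceptor of semaphorins and VEGF, had 97 and 590 counts (2.25, interval 1.96 to 2.59), and its ligand SEMA3A 3.18 and 10.4 CPM (1.69). TGF-beta and BMP genes had 24 of 34 below 0 and a median of -0.20 (-0.23 to -0.06), with 2 at least 2-fold higher and 3 lower. The 2 higher were SMAD6, an inhibitor of BMP signalling, at 23.6 and 55.5 CPM (1.23) and ID3, a BMP target, at 226 and 472 CPM (1.06). The repressor TGIF1 had 341 and 119 CPM (-1.52).

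The 2-fold differences were spread unevenly over levels and gene structure. Among the 2631 features with the lowest mean (up to 7.79 CPM), 12.9% reached 2-fold on the higher side and 12.2% on the lower. Among the 2630 with the highest mean (95.7 to 10765 CPM), 1.83% were higher and 7.07% lower. The intervals of low counts are wide, and with the rule that the near end of the counting interval pass 2-fold, 307 features were higher and 610 lower. Genes with 1 exon in the longest coding transcript were higher in 6.83% and lower in 8.19%. Those with 2 exons were higher in 8.48% and lower in 6.54%, and those with 16 or more exons in 2.90% and 6.15%. The median log2 ratio went from 0.15 over the 2382 genes of shortest genomic span (up to 10728 bases) to -0.17 over the 2382 of longest span (from 96291 bases). In HEC-1-A the medians of genes grouped the same way were 0.02 and 0.01. Genes at least 2-fold higher had a median transcript length of 3112 bases and a GC content of 53.0%, those at least 2-fold lower 3590.5 bases and 49.99%, and all measured features 3474 bases and 48.8%, over the 90.5% of features found in the annotation (80.8% of those higher and 83.1% of those lower).

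**Figure D5:**
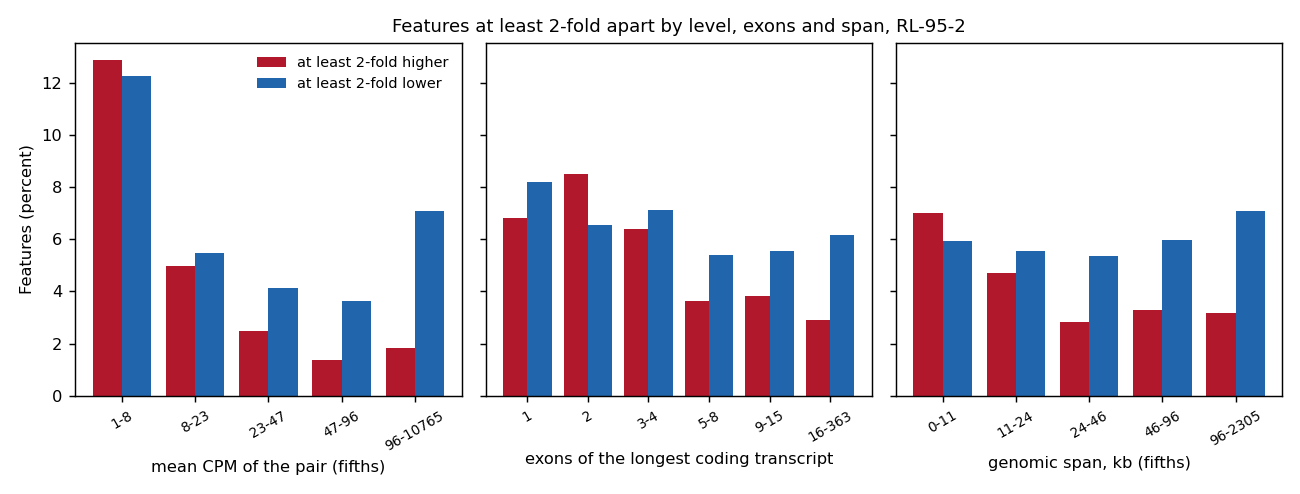
Percent of measured features at least 2-fold higher (red) or lower (blue) in the RL-95-2 mimic library by mean CPM, by number of exons and by genomic span in kb, in groups whose lowest and highest values stand under the bars. The group of lowest CPM has the largest shares (12.9% and 12.2%), and the share higher falls from 7.01% to 3.19% between the shortest and the longest span.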

How the data were processed

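Polyadenylated RNA of 4 libraries was sequenced, and the RL-95-2 pair was compared here. For each library the authors deposited a raw read count and an FPKM value per gene. CASAVA, HISAT2 and the build GRCh38 (hg38) are named in the submitters' processing notes. The sources used here do not give the counter, the annotation, the strand setting or how FPKM was computed. The labels name no separate cultures.

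From the deposited counts, TMM factors over the 4 libraries were computed with edgeR 4.0.16 (R 4.3.3), 0.976 for the control and 1.07 for the mimic library of RL-95-2. Ratios of scaled CPM used a prior count of 2. Intervals are Clopper-Pearson at 95% on the share of both counts that came from the mimic library, cover counting error only, and were tested on simulated data. FPKM values served for levels between genes. Against a library at 0, the fold was taken with 3 counts in its place, without the error of the other count. The 2765 features with a locus number and 27 with a date in place of a symbol stayed in the table but were not named. Positions, lengths, GC and exons came from GENCODE 29 by symbol, and promoters from RefSeq, which held 75.6% of measured features.

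Named were genes among the 12 largest gains or losses in CPM, the 15 highest or lowest ratios at a mean of at least 20 CPM, and, in each of 63 gene lists, the 3 highest, the 3 lowest and the 2 highest in FPKM, or every member of lists of up to 12. Of these lists, 3 had no measured member (snoRNA hosts, long noncoding RNAs, blood and immune markers). The PSG family was added, and genes named outside the rule are so marked. Not every gene that meets the rule is reported here. The comparison and the lists were chosen with earlier results of these data known. Alternatives were RLE, library-total and pair-only scaling, other filters, a prior count of 0.25, log2(FPKM + 1), log2(FPKM + 0.1), the near end of the interval, and removal of GC and length trends. A restriction to gene symbols without read-through genes was chosen after seeing the data.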

Additional observations from a re-analysis of the deposited data

Results flagged for a closer look

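Of 54 gene lists with at least 5 measured members in each line, 28 had medians of opposite sign in the RL-95-2 and HEC-1-A pairs. The 5 given here had a median at least 0.5 from 0 in RL-95-2 and at least 0.1 from 0 on the other side in HEC-1-A. The difference between the lines was not tested, since each line has 1 library a side. Serine and one-carbon genes had a median log2 ratio of -0.82 in RL-95-2, with 10 of 12 measured members below 0, and 0.16 in HEC-1-A, with 9 of 10 above 0. Aryl hydrocarbon receptor targets had -0.82 in RL-95-2, with 7 of 9 below 0, and 0.44 in HEC-1-A, with 6 of 7 above. EGF ligands and ERBB receptors had -0.98 and 10 of 12 below 0, against 0.20 and 11 of 13 above. MAP kinase feedback genes had -0.62 and 16 of 20 below 0, against 0.16 and 13 of 19 above. Chemokines and cytokines had -1.24 and 13 of 15 below 0, against 0.33 and 7 of 7 above. The share of all measured HEC-1-A features above 0 is not given here, so the HEC-1-A counts have no background beside them. Over all these features the lower quartile of the log2 ratio was -0.12 and the upper quartile 0.16. The HEC-1-A medians of serine and one-carbon genes and of MAP kinase feedback genes lay at this upper quartile.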

How the results depend on the processing

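The counts of features at least 2-fold higher (619) and lower (857) moved with the filter and the unit. At a mean of at least 5 CPM, 336 were higher. Over any feature with a count, 1691 were higher and 1820 lower. On log2(FPKM + 1), 352 were higher and 375 lower. With the near end of the interval past 2-fold, 307 were higher. Gains were 56.1% of the 2-fold differences when libraries were scaled by their totals and 57.2% on log2(FPKM + 0.1), in place of 41.9%, and the median of all features was 0.13 and 0.14 there. The median of stratified and squamous genes was 0.0091 with library totals, 0.015 on log2(FPKM + 1) and 0.015 on log2(FPKM + 0.1), against -0.12. SMAD7, an inhibitor of TGF-beta signalling, had -1.61 on counts (19.6 and 6.41 CPM), 0.073 on log2(FPKM + 1) and 0.084 on log2(FPKM + 0.1); the cause was not tested. Of 197 named genes at least 2-fold apart, 56 fell below 2-fold under at least 1 alternative. Prior count 0.25 and TMM on the pair alone moved no named gene outside its interval. They moved no list median beyond the counting error of its members, taken from the median width of their counting intervals. The spread of ratios within a list was not used. Scaling by library totals moved 48 of 61 list medians and 323 of 460 named genes past these limits. On log2(FPKM + 1) 51 medians and 374 named genes moved, and on log2(FPKM + 0.1) 47 and 350. RLE factors moved 32 named genes, and removal of GC and length trends 9 medians and 165 named genes. No paired analysis was possible because each side has 1 library and the labels carry no replicate number, and no replicate could be left out.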

Other observations

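Of the measured features, 8 were at 0 in 1 RL-95-2 library, and 4 of these carry gene symbols. JMJD7-PLA2G4B, a read-through of 2 neighbouring genes on chromosome 15, had 0 counts with the control and 1094 with the mimic. That is 289-fold higher with 3 counts in place of 0 (near end of the log2 interval 7.87). In HEC-1-A it had 336 and 0 counts. PPAN-P2RY11, a read-through on chromosome 19, had 398 and 0 counts, 168-fold lower on the same terms (near end -7.08), and 217 and 0 in HEC-1-A. CORO7-PAM16, a read-through on chromosome 16, had 153 and 0 counts, 64.4-fold lower on the same terms (near end -5.69). Each overlaps both of its single genes on the same strand, and how reads were assigned among them was not tested. SCHIP1-1 had 0 counts with the control and 239 with the mimic, and 0 and 154 in HEC-1-A. These features were named after their values were seen.

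By chromosome, the median log2 ratio ranged from -0.23 on chromosome 18 (164 features, 9.76% at least 2-fold lower) to 0.10 on chromosome 22 (288 features, 5.90% lower), against 6.52% lower over all measured features. On the X chromosome 2.33% of 386 features were at least 2-fold lower and 5.44% higher. In HEC-1-A the medians were 0.02 on chromosome 18 and 0.00 on chromosome 22.

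Members of the TGF-beta and BMP group in RL-95-2 had their own spread, with BAMBI, a decoy receptor, at 85.9 and 31.0 CPM (log2 ratio -1.47) and ID1 at 355 and 351 CPM (-0.02). Among MHC class I and peptide loading genes, 3 of 20 were at least 2-fold higher and none lower, led by the aminopeptidase ERAP2 at 4.74 and 11.8 CPM (1.30) and the immunoproteasome subunit PSMB9 at 7.74 and 18.3 CPM (1.23), while HLA-B had 398 and 282 CPM (-0.50). Among Mullerian lineage and HOX genes, HOXC13 had 19.3 and 48.2 CPM (1.32) and GATA6 32.2 and 13.6 CPM (-1.24). In the S100 and annexin group, ANXA1 had 1356 and 620 CPM (-1.13) and S100A8 4.92 and 14.2 CPM (1.52).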
